A study of Mus musculus with 30 samples.

Results

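Ifi203, Mndal, Ifi204 and Aim2, 4 members of the mouse PYHIN family, were taken by gene symbol from a table of transcript levels, and their levels were followed across genotypes and interferon treatments. They are 4 of 31427 gene symbols in the table, and all 4 passed the filter on low values. The cells are DC3.2, a mouse dendritic cell line, and RNA sequencing was done on 30 libraries. Of these, 24 form 12 groups of 2 libraries: WT, IRF1KO, IRF2KO and DKO cells, the last lacking both IRF1 and IRF2 by their label, each kept for 2 h in media alone, with interferon alpha (IFNα, 5000 U/mL) or with interferon gamma (IFNγ, 2 ng/mL). A further 6 libraries, 1 per condition, come from WT and IRF2KO cells at 0 h and after 2 h with IFNα or with LPS, for which the labels give no dose. In the titles of the replicated libraries IRF1KO and IRF2KO read IRF1sg and IRF2sg. No label says directly which of these libraries are WT: those titled nosg were taken as WT, the genotype left in the series' design, so the reference group of every mutant comparison is inferred. The labels name no control for the targeting and do not say whether a line is a clone. They also do not say whether the 2 libraries of a group are separate cultures, so p-values measure only the spread between these samples.

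PYHIN proteins pair a pyrin domain, which binds other pyrin domains, with a HIN domain, which binds double-stranded DNA. Many of their genes are induced by interferon, and the mouse genes lie in a cluster on chromosome 1 whose members differ between mouse strains. Type I interferons such as IFNα act through the factor ISGF3, which binds the interferon-stimulated response element (ISRE), and IFNγ acts through the gamma-activated site (GAS) and through IRF1, which it induces and which binds ISRE-like sites. IRF2 is a relative of IRF1 that binds the same sites.

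Aim2, the sensor of cytosolic DNA that builds an inflammasome with the adaptor ASC, spans bases 173349547 to 173466040 of chromosome 1 (RefSeq, build GRCm38.p6). Ifi204, a relative of human IFI16 that detects DNA and signals through STING, spans 173747293 to 173767069. Mndal, which resembles human MNDA, spans 173857215 to 173880382, and Ifi203, a HIN domain protein, spans 173920400 to 173942866. RefSeq promoter windows (250 bases before to 50 after a transcription start) were found for Ifi203, Mndal and Aim2, with 2 windows each for Ifi203 and Mndal. A window of each gene is shown, since the levels of Ifi203 and Mndal moved together in the data below and those of Aim2 did not. Whether the letters of a window bear on these levels was not tested. Capitals mark matches to the ISRE core, searched as GAAANNGAAA on both strands; the GAS, searched as TTCNNNGAA, had no match in any window of the 3 genes.
Ifi203, chr1:173942443-173942742, minus strand: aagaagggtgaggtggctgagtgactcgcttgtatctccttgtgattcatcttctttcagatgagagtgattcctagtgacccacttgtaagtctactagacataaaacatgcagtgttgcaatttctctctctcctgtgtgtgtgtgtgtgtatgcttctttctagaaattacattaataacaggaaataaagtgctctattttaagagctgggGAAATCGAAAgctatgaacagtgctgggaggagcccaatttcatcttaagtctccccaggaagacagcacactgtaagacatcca
Mndal, chr1:173880138-173880437, minus strand: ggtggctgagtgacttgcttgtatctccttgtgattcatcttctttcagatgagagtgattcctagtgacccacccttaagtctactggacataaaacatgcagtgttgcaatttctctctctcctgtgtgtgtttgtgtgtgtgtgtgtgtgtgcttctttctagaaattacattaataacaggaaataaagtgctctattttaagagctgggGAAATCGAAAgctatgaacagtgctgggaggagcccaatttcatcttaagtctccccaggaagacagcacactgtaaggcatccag
Aim2, chr1:173420354-173420653, plus strand: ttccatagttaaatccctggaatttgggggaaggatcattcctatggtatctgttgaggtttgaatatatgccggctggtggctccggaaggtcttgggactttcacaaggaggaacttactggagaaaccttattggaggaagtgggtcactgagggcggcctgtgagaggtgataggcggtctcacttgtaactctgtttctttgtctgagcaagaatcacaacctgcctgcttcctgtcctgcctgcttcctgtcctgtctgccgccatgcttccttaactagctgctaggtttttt

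The Ifi203 and Mndal windows aligned over 289 bases, of which 282 were identical (97.6%). Both hold GAAATCGAAA on the gene's strand, with its last base 26 bases before the start in Ifi203 and 27 in Mndal. These windows were picked as the first of each gene with an ISRE core match. That both hold a match therefore follows from the choice. The other Ifi203 window has no match, and the other Mndal window has 1 on the opposite strand, 45 bases before its start. The Aim2 window, the only one found for that gene, has no match to either motif. It lies inside the span given for Aim2, so the bases before the start of that span were not searched. Of 32851 windows in the RefSeq table, 1131 (3.44%) hold the ISRE core and 2726 (8.30%) the GAS, and a match is a description of the letters, not a measured binding site. Of the 4 further Pyhin genes named below, Ifi209 (Pyhin1 in the deposited table) has no match to either motif in its window. The other 3 carry the ISRE core in the stretches shown. Ifi211 (Mnda in the table) has it 28 bases before the start, Ifi207 (AI607873 in the table) 32 bases and Ifi205 125 bases before. The Ifi205 window has 1 more match, not shown: GAAAGTGAAA on the opposite strand, with its far end 32 bases past the start.
Ifi211: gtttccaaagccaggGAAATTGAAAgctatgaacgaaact
Ifi207: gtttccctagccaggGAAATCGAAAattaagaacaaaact
Ifi205: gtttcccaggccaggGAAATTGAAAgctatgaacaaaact

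Between 10911 and 11101 genes reached 1 TPM (a share of a library's transcripts, corrected for length, that keeps no read totals, so that depth is unknown) in each of the replicated libraries. In media, Irf1 was at 19.7 and 22.5 TPM in WT and at 30.6 and 23.6 TPM in IRF1KO, and Irf2 was at 23.4 and 25.2 TPM in WT and at 18.2 and 17.4 TPM in IRF2KO. An edit can end a protein without lowering its mRNA, so these levels do not check the lines. Of the dendritic cell markers, Cd74 (3623 to 5097 TPM), H2-Ab1, Itgax and Batf3 were present, Flt3 was listed at 0 in all 24 libraries, and Xcr1, Clec9a and Itgae stayed below 1 TPM. The macrophage genes Lyz2 (1119 to 1906 TPM), Csf1r and Cd14 were present too, and the lymphocyte and fibroblast lists summed to at most 0.5 and 0.4 TPM. In bulk RNA, fewer expressing cells and less RNA per cell cannot be told apart.

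In media, Aim2 was the most abundant of the 4 genes in 8 of 8 libraries, with 31.0% to 51.9% of their summed TPM. With IFNα, Ifi204 was the most abundant in 8 of 8 libraries, with 38.1% to 57.7% of the sum, and Aim2 had 8.3% to 10.5%. The sum of the 4 genes was 49.8 to 71.6 TPM in media, 222.2 to 327.0 TPM with IFNα and 68.8 to 161.5 TPM with IFNγ. With IFNγ the leading gene varied: Ifi204 led in 5 libraries, Ifi203 in 2 and Mndal in 1.

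**Figure D1:**
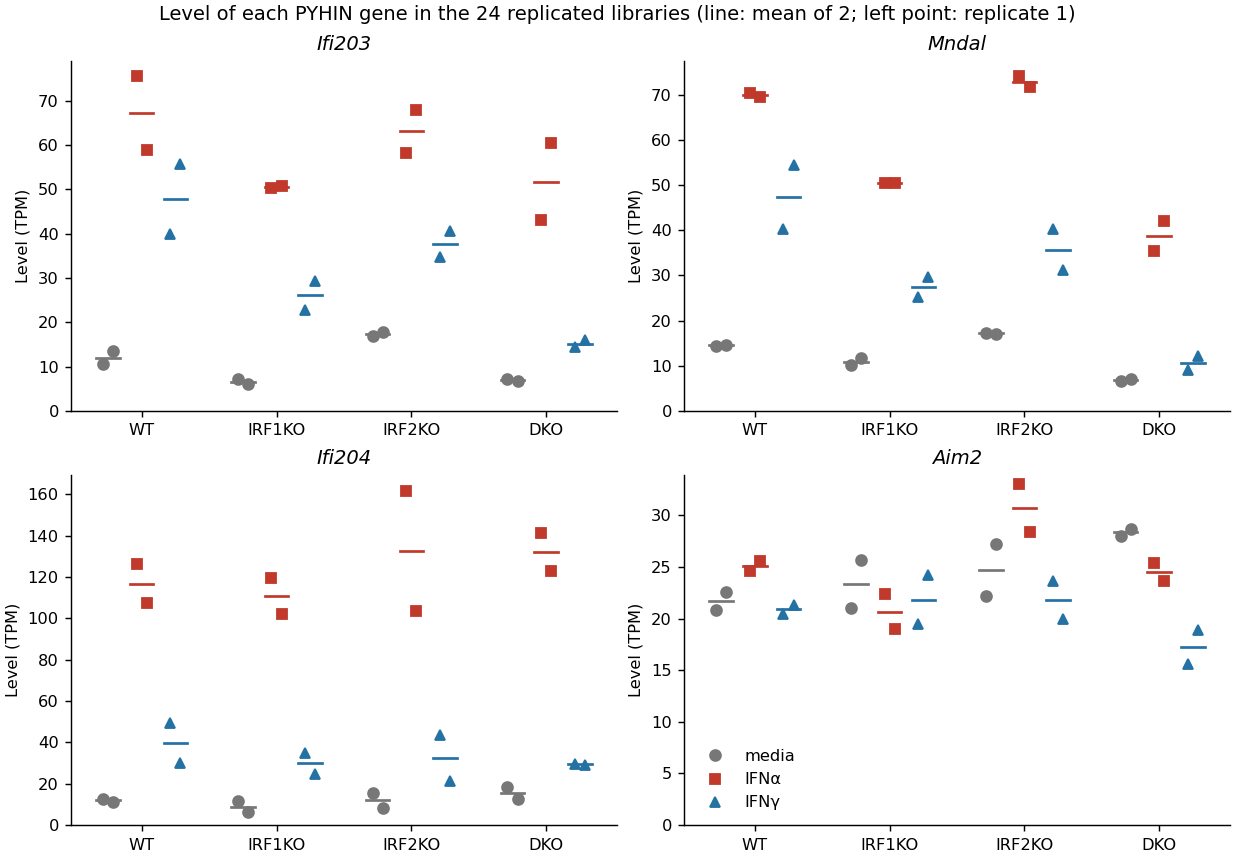
Level in TPM (vertical axis) of each gene in the 24 replicated libraries by genotype, with a point per library, a line at the mean of 2, circles for media, squares for IFNα and triangles for IFNγ. Ifi203, Mndal and Ifi204 sit above media with either interferon in each genotype, with the IFNγ levels of Ifi203 and Mndal lowest in DKO, while Aim2 stays between 15.6 and 33.0 TPM.

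IFNα raised Ifi204, Ifi203 and Mndal in all 4 genotypes and did not raise Aim2 past the threshold in any. In WT, Ifi204 was at 12.8 and 11.2 TPM in media and at 126 and 107 TPM with IFNα (log2 difference of TPM + 1, 3.18 ± 0.36 SE, limma adjusted p = 4.1e-05, n = 2 per group). Ifi203 was at 10.5 and 13.4 TPM in media and at 75.5 and 58.9 TPM with IFNα (2.39 ± 0.19, limma adjusted p = 8.0e-07). Mndal was at 14.3 and 14.7 TPM in media and at 70.4 and 69.6 TPM with IFNα (2.20 ± 0.16, limma adjusted p = 2.3e-07). In these 3 genes every IFNα library lay above every media library of its genotype. Here and below, overlap of groups of 2 libraries, or its lack, only describes the values: its share over all genes was not counted.

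In IRF1KO cells, Ifi204 was at 11.4 and 6.39 TPM in media and at 119 and 102 TPM with IFNα, Ifi203 at 7.12 and 6.13 against 50.3 and 50.8 TPM, and Mndal at 10.2 and 11.6 against 50.5 and 50.4 TPM. In IRF2KO cells, Ifi204 was at 15.4 and 8.27 TPM in media and at 161 and 104 TPM with IFNα, Ifi203 at 16.8 and 17.9 against 58.3 and 67.9 TPM, and Mndal at 17.2 and 17.1 against 74.1 and 71.7 TPM. In DKO cells, Ifi204 was at 18.4 and 12.6 TPM in media and at 141 and 123 TPM with IFNα, Ifi203 at 7.23 and 6.84 against 43.0 and 60.4 TPM, and Mndal at 6.58 and 7.15 against 35.4 and 42.1 TPM. The rise of Ifi204 ranged from 3.03 in DKO to 3.54 in IRF1KO, that of Ifi203 from 1.80 in IRF2KO to 2.76 in IRF1KO, and that of Mndal from 2.02 in IRF2KO to 2.33 in DKO. Over the 4 genotypes 12 of 16 pairs of a gene and a comparison were called higher, 3 of 4 genes in each genotype. Of all 11842 genes tested, 1.04% were called higher with IFNα in WT, 0.811% in IRF1KO, 1.38% in IRF2KO and 0.971% in DKO. All 12 calls held without any 1 of the libraries compared.

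IFNγ raised Ifi203 in all 4 genotypes and Mndal in 3. As point values the rises of both genes were lower than in WT in every mutant, least so in IRF1KO. None of these differences in response was called in the interaction test below. In WT, Ifi203 was at 40.0 and 55.7 TPM with IFNγ (1.90 ± 0.19 against media, limma adjusted p = 1.4e-05) and Mndal at 40.4 and 54.5 TPM (1.63 ± 0.16, limma adjusted p = 9.1e-06). In IRF1KO, Ifi203 reached 22.8 and 29.3 TPM (1.82 ± 0.19) and Mndal 25.1 and 29.6 TPM (1.25 ± 0.16). Both libraries with IFNγ lay above both media libraries for either gene in WT and IRF1KO.

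In IRF2KO, Ifi203 reached 34.6 and 40.6 TPM (1.07 ± 0.19, limma adjusted p = 0.0070) and Mndal 40.2 and 31.3 TPM (1.01 ± 0.16, limma adjusted p = 0.0021). In DKO, Ifi203 reached 14.5 and 15.9 TPM (1.01 ± 0.19, limma adjusted p = 0.016). Mndal had 9.13 and 12.1 TPM there, above both media libraries, with a difference of 0.55 ± 0.16 that missed the threshold (limma adjusted p = 0.22). The DKO call of Ifi203 was lost without any 1 of its 4 libraries (limma adjusted p from 0.067 to 0.16). The IRF2KO call of Ifi203 was kept only without IFNγ replicate 1 (0.036, against up to 0.11), and that of Mndal was lost without IFNγ replicate 1 (0.076).

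The difference of Ifi204 from media was smaller with IFNγ than with IFNα in every genotype. It was at 49.5 and 29.9 TPM with IFNγ in WT (1.61 ± 0.36, limma adjusted p = 0.034) and at 34.8 and 24.8 TPM in IRF1KO (1.66 ± 0.36, limma adjusted p = 0.030). In IRF2KO it was at 43.5 and 21.4 TPM (1.36 ± 0.36, limma adjusted p = 0.11) and in DKO at 29.6 and 29.1 TPM (0.90 ± 0.36, limma adjusted p = 0.59). With the replicate number as a block, which takes up a shift shared by all libraries of a number, both were called higher (limma adjusted p = 0.00074 and 0.029). IFNγ libraries did not overlap with media libraries in any genotype, which is a description of 2 libraries a group and not a test. Leaving out 1 library kept the WT call only without IFNγ replicate 2 (0.036, against up to 0.44) and the IRF1KO call only without media replicate 1 (0.031, against up to 0.42), and without IFNγ replicate 2 the IRF2KO difference was called at 1.85 (0.036).

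Over the 4 genotypes 9 of 16 pairs were called higher with IFNγ and 1 lower. In WT and in IRF1KO 3 of 4 genes were called higher, where 1.20% and 1.10% of all genes were. In IRF2KO it was 2 of 4, against 1.04% of all genes (3 of 4 with the block, against 1.82%). In DKO it was 1 of 4, against 0.701% of all genes (2 of 4 with the block, against 1.29%), and 1 of 4 was called lower, against 0.0760%.

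**Figure D2:**
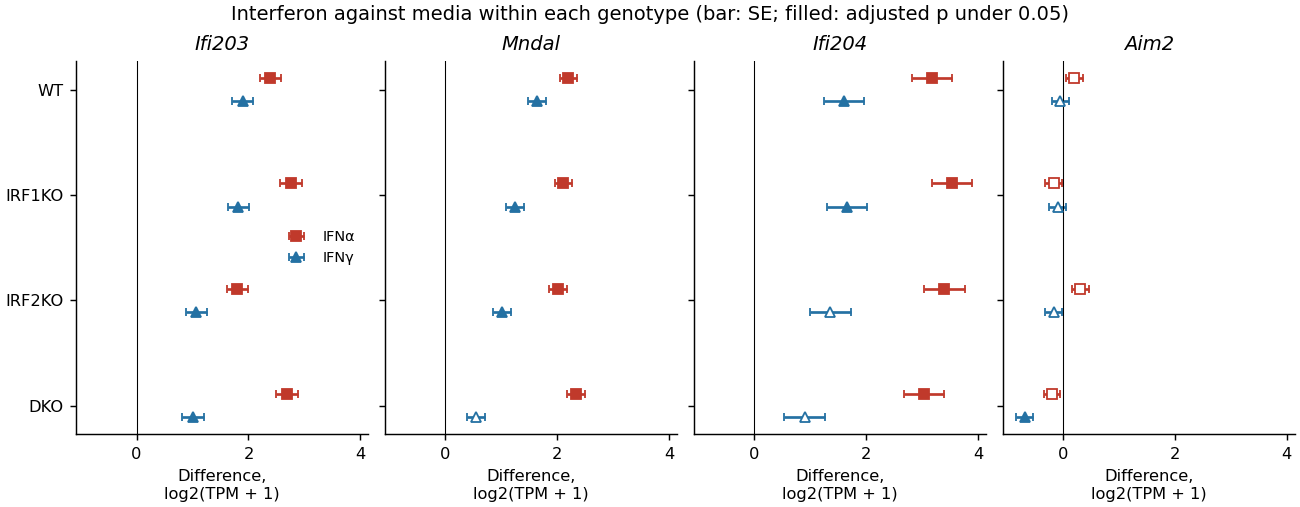
Difference from media on the log2(TPM + 1) scale (horizontal axis) for IFNα (squares) and IFNγ (triangles) in each genotype, with SE bars and filled symbols for an adjusted p under 0.05. Ifi203, Mndal and Ifi204 lie right of 0 for both interferons, from 0.55 to 3.54, and Aim2 lies between -0.69 and 0.31.

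The direct comparison of IFNγ with IFNα gave lower levels for 8 of 16 pairs and higher levels for none. Ifi204 was lower with IFNγ by -1.87 ± 0.36 in IRF1KO (limma adjusted p = 0.014), -2.04 ± 0.36 in IRF2KO (0.0063) and -2.13 ± 0.36 in DKO (0.0040), and in WT by -1.57 ± 0.36 with an adjusted p of 0.056 (0.00023 with the block). Mndal was lower by -0.86 ± 0.16 in IRF1KO, -1.02 ± 0.16 in IRF2KO and -1.78 ± 0.16 in DKO, and Ifi203 by -0.94 ± 0.19 in IRF1KO and -1.68 ± 0.19 in DKO. The WT values of Ifi203 and Mndal, -0.49 ± 0.19 and -0.57 ± 0.16, missed the threshold (limma adjusted p = 0.78 and 0.20). Members called lower were 0 of 4 in WT (0.355% of all genes, and 1 of 4 against 0.608% with the block), 3 of 4 in IRF1KO (0.414%), 2 of 4 in IRF2KO (0.583%) and 3 of 4 in DKO (0.625%). The DKO calls of Ifi203 and Mndal held without any 1 library, and that of Ifi204 was lost without IFNα replicate 1 (0.061). In IRF1KO the calls of Ifi203 and Mndal were kept only without IFNγ replicate 2 (0.044 and 0.036) and that of Ifi204 only without IFNγ replicate 1 (0.044). In IRF2KO both calls were lost without IFNγ replicate 2 (0.069 for Mndal), and that of Ifi204 also without IFNα replicate 1 (up to 0.17).

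Among the mutants, Mndal was called lower than in WT in DKO cells, as was Ifi203 with IFNγ, and no member passed the threshold in IRF1KO or IRF2KO cells. All these comparisons share the WT libraries. With IFNγ, Mndal was at 40.4 and 54.5 TPM in WT and at 9.13 and 12.1 TPM in DKO (-2.06 ± 0.16, limma adjusted p = 1.0e-06). Ifi203 was at 40.0 and 55.7 TPM in WT and at 14.5 and 15.9 TPM in DKO (-1.57 ± 0.19, limma adjusted p = 0.00014). Both calls held without any 1 library. Mndal was also lower in DKO in media (-0.98 ± 0.16, limma adjusted p = 0.0043) and with IFNα (-0.84 ± 0.16, 0.012). Those calls were kept only without DKO replicate 2 of the treatment (0.037 in media and 0.028 with IFNα), and reached 0.072 and 0.22 without another library. Ifi203 differed by -0.68 ± 0.19 in media and -0.38 ± 0.19 with IFNα (limma adjusted p = 0.19 and 0.63), where the IFNα groups overlapped. Its differences from WT in IRF1KO were of like size, -0.76 ± 0.19 in media and -0.39 ± 0.19 with IFNα, and were not called either.

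Ifi204 had no call between a mutant and WT: its values ran from -0.44 ± 0.36 to 0.33 ± 0.36, and the groups overlapped in 8 of the 9 comparisons. Members called lower in DKO were 1 of 4 in media (0.532% of all genes), 1 of 4 with IFNα (0.684%) and 2 of 4 with IFNγ (1.02%). In IRF2KO 0 of 4 were called lower in media (0.557%), with IFNα (0.346%) and with IFNγ (0.490%), and 2 of 12 pairs had an unadjusted p under 0.05. Of all 11842 genes, 869, 1095 and 1010 had such a p in media, IFNα and IFNγ. In IRF1KO 0 of 4 were called lower in media (0% of all genes) and with IFNα (0.177%) and IFNγ (0.236%), and 5 of 12 pairs had an unadjusted p under 0.05. There, 305, 269 and 287 of all 11842 genes had such a p in media, IFNα and IFNγ. With IFNγ, Mndal in IRF1KO was at 25.1 and 29.6 TPM, below both WT libraries (-0.76 ± 0.16, limma adjusted p = 0.077). It was called lower with the block (0.032, 1 of 4 members against 0.355% of all genes), with other scalings and without WT replicate 1 (0.042). Ifi203 had -0.84 ± 0.19 there (0.14, and 0.050 with the block, not called).

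**Figure D3:**
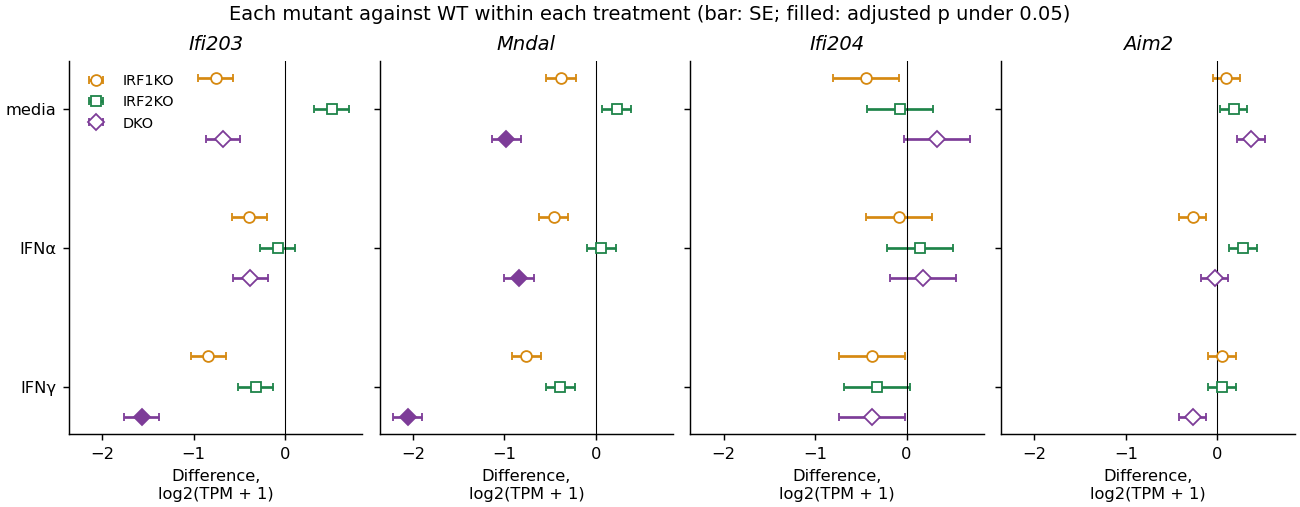
Difference of each mutant from WT on the log2(TPM + 1) scale (horizontal axis) in media, IFNα and IFNγ, with SE bars and filled symbols for an adjusted p under 0.05. The filled symbols are DKO alone, for Mndal in the 3 treatments (-0.98, -0.84 and -2.06) and for Ifi203 with IFNγ (-1.57).

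DKO cells were then set against each mutant with 1 factor targeted. Against IRF2KO, Mndal was lower in media (-1.21 ± 0.16, limma adjusted p = 0.0025), with IFNα (-0.90 ± 0.16, 0.014) and with IFNγ (-1.66 ± 0.16, 1.9e-05), and Ifi203 in media (-1.19 ± 0.19, 0.020) and with IFNγ (-1.25 ± 0.19, 0.0030). Against IRF1KO, Mndal was lower with IFNγ (-1.29 ± 0.16, limma adjusted p = 0.00024), where IRF1KO had 25.1 and 29.6 TPM and DKO 9.13 and 12.1 TPM. Ifi203 in the same cells was at 22.8 and 29.3 TPM in IRF1KO and at 14.5 and 15.9 TPM in DKO (-0.73 ± 0.19, limma adjusted p = 0.13, and 0.038 with the block). In media Ifi203 was at 7.12 and 6.13 TPM in IRF1KO and at 7.23 and 6.84 TPM in DKO (0.08 ± 0.19), and these groups overlapped.

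Members called lower in DKO against IRF2KO were 2 of 4 in media (0.101% of all genes), 1 of 4 with IFNα (0.363%) and 2 of 4 with IFNγ (0.464%). The median of all genes in media was itself 0.13 higher in DKO than in IRF2KO. Against IRF1KO they were 0 of 4 in media (0.456%), 0 of 4 with IFNα (0.473%) and 1 of 4 with IFNγ (0.549%; 2 of 4 against 1.23% with the block). The calls of Mndal with IFNγ, and in media against IRF2KO, held without any 1 library. The media call of Ifi203 was lost without any 1 of its libraries (0.16 to 0.22), its IFNγ call without IRF2KO replicate 2 (0.068), and the IFNα call of Mndal was kept only without DKO replicate 2 (0.035, against up to 0.32).

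Whether the response to interferon differed from that in WT was tested as an interaction, and none of 24 pairs was called by limma, while 6 had an unadjusted p under 0.05. Of all 11842 genes, 203, 394 and 166 had such a p for IFNα in IRF1KO, IRF2KO and DKO, and 175, 175 and 248 for IFNγ. For IFNα, 0 of 4 members were called in IRF1KO (0.0253% of all genes in either direction), in IRF2KO (0.0676%) and in DKO (0.0844%). For IFNγ it was 0 of 4 in IRF1KO (0.0844%), in IRF2KO (0.0338%) and in DKO (0.0929%). The response of Mndal to IFNγ in DKO was lower than in WT by -1.08 ± 0.23 (limma adjusted p = 0.13, 0.059 with the block), and that of Ifi203 by -0.89 ± 0.27. After these values had been seen, the difference between DKO and WT under IFNγ was set against that under IFNα. It was -1.21 ± 0.23 for Mndal (limma adjusted p = 0.072), -1.19 ± 0.27 for Ifi203 (0.26), -0.56 ± 0.50 for Ifi204 and -0.23 ± 0.21 for Aim2. No member was called lower (0.0338% of all genes). With the block Mndal was called (0.043), 1 of 4 against 0.101%, and it was also called without DKO IFNγ replicate 2 (-1.40, 0.034).

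Aim2 kept a narrow range. In WT it was at 20.8 and 22.6 TPM in media, 24.7 and 25.6 TPM with IFNα and 20.5 and 21.3 TPM with IFNγ, and in IRF1KO at 21.04 and 25.7, 22.3 and 19, and 19.4 and 24.2 TPM. In IRF2KO it was at 22.2 and 27.2 TPM in media, 33.0 and 28.4 TPM with IFNα and 23.6 and 19.9 TPM with IFNγ. In DKO it was at 28.0 and 28.7 TPM in media, 25.4 and 23.6 TPM with IFNα and 15.6 and 18.9 TPM with IFNγ. The fall with IFNγ in DKO was the only call of Aim2 in the 33 comparisons of this design (-0.69 ± 0.15, limma adjusted p = 0.041, and 0.020 with the block). It was kept only without IFNγ replicate 2 (0.048) and reached 0.40 without another library. Without the filter on low values it was not called.

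Across the 24 libraries Ifi203 and Mndal were each other's closest gene among 8826 compared (Pearson r = 0.960 of log2(TPM + 1)), a description over libraries that share genotypes and treatments. The next closest to Ifi203 were Dtx3l (0.935), Parp9 (0.928), Fcgr1 (0.915) and Stat2 (0.905), and to Mndal Parp9 (0.954), Dtx3l (0.947), Phf11d (0.883) and Parp14 (0.877). Mndal was above Ifi203 in 4 of 6 WT libraries, 5 of 6 IRF1KO, 4 of 6 IRF2KO and 1 of 6 DKO libraries, a difference between genotypes that was not tested. Closest to Ifi204 were Mnda (0.976), AI607873 (0.974), Slfn8 (0.957), Trex1 (0.955) and Daxx (0.942). No gene came as near to Aim2, whose closest were Arhgap25 (0.728), Cnot6l (0.711), Plscr1 (0.698), Abcg1 (0.678) and Ran (0.674). The r of Aim2 with the other 3 members was 0.080 to 0.192.

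Ifi204 was higher in replicate 1 than in replicate 2 in 12 of 12 groups, by 0.02 to 0.99 on the log2(TPM + 1) scale (replicate term 0.48 ± 0.08, limma adjusted p = 0.00041, among 31.4% of all genes called for this term). Mnda was higher in replicate 1 in 11 of 12 groups (0.40 ± 0.10, limma adjusted p = 0.0051), and the terms of Ifi203, Mndal and Aim2 were -0.14, -0.10 and -0.05 and were not called. Similar transcripts make the split of reads uncertain: 29.7% of the 50-base stretches of the Ifi204 transcript also occur in another of the 8 Pyhin genes compared, 23.2% in Mnda. For Mndal the share was 26.4%, with 15% in Mnda, 13.3% in Ifi205, 9.7% in Ifi204 and 5.5% in Ifi203. For Ifi203 it was 3.0%, from transcripts listed only for the single libraries, and for Aim2 0.0%. The part of shared reads in any result was not tested.

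**Figure D4:**
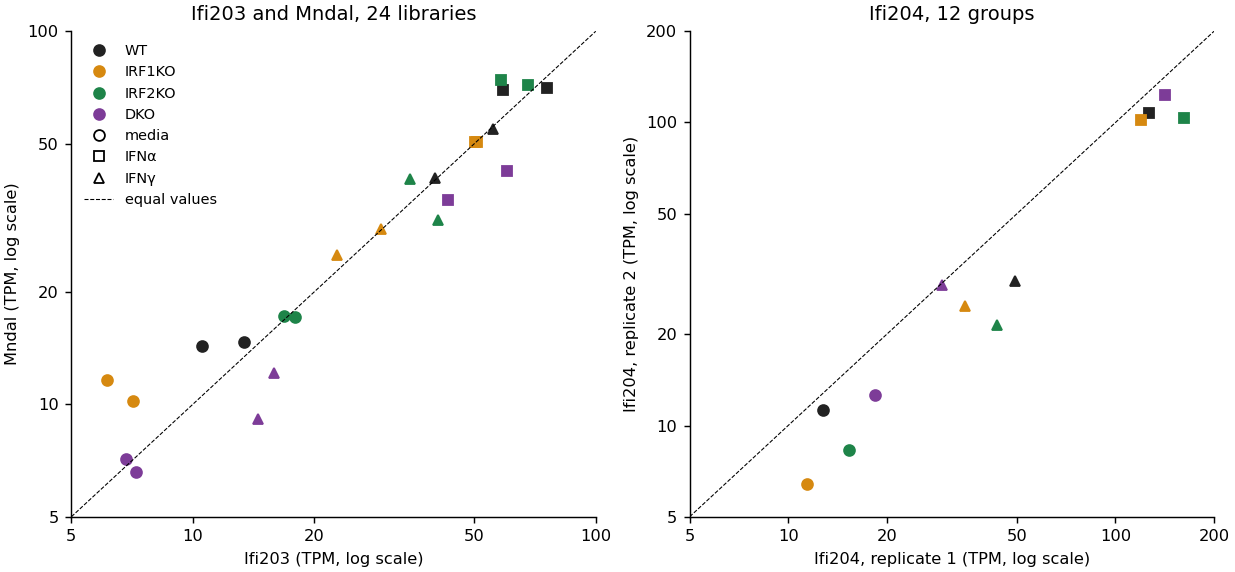
Left, Mndal against Ifi203 in TPM on log axes in the 24 libraries; right, Ifi204 in replicate 2 against replicate 1 in TPM on log axes for the 12 groups, with genotype as colour, treatment as shape and a dashed line at equal values. In the DKO cells, 5 of 6 libraries lie below the line on the left, and all 12 groups lie below it on the right.

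Of 18 further Pyhin names listed, 8 were in the table and 4 passed the filter: Ifi205, Mnda, Pyhin1 and AI607873. All 4 were called higher with IFNα in each genotype (beside 1.04%, 0.811%, 1.38% and 0.971% of all genes in WT, IRF1KO, IRF2KO and DKO), with WT differences of 2.11 ± 0.40 for Ifi205, 3.92 ± 0.34 for Mnda, 1.62 ± 0.18 for Pyhin1 and 2.55 ± 0.11 for AI607873. The median of the 4 in WT was 2.33, beside -0.06 over all genes. AI607873 was at 37.6 to 38.1 TPM in WT media and at 225 to 229 TPM with IFNα. With IFNγ it was called in each genotype, with 1.38 ± 0.11 in WT, 1.18 ± 0.11 in IRF1KO, 0.89 ± 0.11 in IRF2KO and 0.71 ± 0.11 in DKO. Mnda was called with IFNγ in WT (2.12 ± 0.34) and IRF2KO (2.09 ± 0.34), and with the block also in IRF1KO (1.41 ± 0.34, limma adjusted p = 0.061, and 0.0026 with the block) and DKO (1.27 ± 0.34, 0.15, and 0.0085 with the block). With IFNγ 2, 1, 2 and 1 of the 4 were thus called in WT, IRF1KO, IRF2KO and DKO (1.20%, 1.10%, 1.04% and 0.701% of all genes), and 2 in each with the block (1.74%, 1.57%, 1.82% and 1.29%). None of the 4 was called between a mutant and WT without the block. Under IFNγ, Mnda was at 9.16 to 12.6 TPM in WT and 4.06 to 4.87 TPM in DKO (-1.11 ± 0.34, limma adjusted p = 0.19), and was called lower with the block (0.015, 1 of 4 against 1.82% of all genes).

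Of 19 tested genes of cytosolic DNA sensing, 2 were called higher with IFNα in WT and 0 lower, where 1.04% of all genes were called higher. They were Irf7, a factor of type I interferon induction (4.36 ± 0.21), and Trex1, the exonuclease that degrades cytosolic DNA (2.06 ± 0.28). Both were called with IFNα in the other 3 genotypes too. Mb21d1, which encodes the DNA sensor cGAS, rose with IFNα in IRF2KO (0.82 ± 0.14) and DKO (0.68 ± 0.14), and with the block in WT as well (0.60 ± 0.14, limma adjusted p = 0.058, and 0.029 with the block), which makes 3 of 19 there against 1.38% of all genes. With IFNγ, 1 of the 19 rose in WT, against 1.20% of all genes: Trex1 (1.31 ± 0.28). Trex1 was also called with IFNγ in IRF1KO and IRF2KO, and in DKO only with the block (1.06 ± 0.28, limma adjusted p = 0.15, and 0.00023 with the block). Tmem173, which encodes STING, was called with IFNγ in IRF1KO (0.68 ± 0.14), and with the block in all 4 genotypes (WT 0.55 ± 0.14, IRF2KO 0.42 ± 0.14 and DKO 0.52 ± 0.14, with limma adjusted p of 0.0037, 0.034 and 0.0091). With the block 2 of 19 were so called with IFNγ in each genotype, Trex1 and Tmem173. Beside them 1.74%, 1.57%, 1.82% and 1.29% of all genes were called higher in WT, IRF1KO, IRF2KO and DKO. With the block Tmem173 was also called with IFNα in IRF1KO (0.49 ± 0.14, limma adjusted p = 0.014) and IRF2KO (0.40 ± 0.14, 0.050 after rounding), which makes 3 and 4 of 19 there against 1.10% and 1.80% of all genes. None of the 19 was called between a mutant and WT without the block, and the list's median for DKO against WT under IFNγ was -0.03, beside 0.00 over all genes. With the block 1 of 19 was called lower there, Xrcc5, which encodes a subunit of the Ku complex that binds DNA ends (-0.66 ± 0.17, limma adjusted p = 0.075, and 0.035 with the block), against 1.82% of all genes.

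Of 13 tested inflammasome genes, 1 was called between mutants and WT without the block, in IRF2KO and DKO in each treatment. Gsdmd, which encodes the pore-forming protein that inflammatory caspases cut, was at 28.5 to 33.7 TPM in WT media, 2.56 to 3.80 TPM in IRF2KO and 2.58 to 2.92 TPM in DKO (-2.95 ± 0.24 and -3.09 ± 0.24, limma adjusted p = 2.9e-06 and 1.4e-06). In these media comparisons 0.557% and 0.532% of all genes were called lower. Gsdmd was also lower in both lines with IFNα (0.346% and 0.684% of all genes) and IFNγ (0.490% and 1.02%). With the block, Casp1, the protease of the inflammasome, was also called higher in IRF2KO against WT in media (0.68 ± 0.23), with IFNα (0.91 ± 0.23) and with IFNγ (0.74 ± 0.23), at limma adjusted p of 0.034, 0.0040 and 0.019 (0.40, 0.094 and 0.24 without the block). Ninj1, whose product ruptures the membrane of dying cells, was called higher with the block in IRF2KO with IFNα (0.55 ± 0.17) and IFNγ (0.47 ± 0.17) and in DKO with IFNγ (0.57 ± 0.17). The counts of genes called higher with the block were thus 1, 2 and 2 of 13 for IRF2KO in media, IFNα and IFNγ (0.625%, 1.44% and 0.811% of all genes) and 1 of 13 for DKO in IFNγ (1.24%).

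Casp4, which encodes the caspase that senses cytosolic LPS, was called with IFNγ in WT (1.72 ± 0.39, limma adjusted p = 0.044), 1 of 13 against 1.20% of all genes. With the block it was called with both interferons in all 4 genotypes, 1 of 13 in each comparison, with differences from 1.21 in IRF1KO with IFNγ to 1.72 and limma adjusted p from 2.9e-05 to 0.0013. With the block 1.38%, 1.10%, 1.80% and 1.27% of all genes were called higher with IFNα in WT, IRF1KO, IRF2KO and DKO. With IFNγ these shares were 1.74%, 1.57%, 1.82% and 1.29%. Pycard, which encodes the ASC adaptor of AIM2, was at 66.2 to 67.9 TPM in WT media and 70.4 to 76.6 TPM in DKO media, and was not called in any comparison, with or without the block.

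The 6 libraries without a replicate list other transcripts per gene, so their levels were not compared with the others, and they have no test. In WT, IFNα took Ifi203 from 10.6 to 51.3 TPM, Mndal from 22.97 to 97.4 TPM, Ifi204 from 14.6 to 138 TPM and Aim2 from 28.2 to 35.1 TPM. In IRF2KO the same values were 15.8 and 83.0 TPM for Ifi203, 29.99 and 148 TPM for Mndal, 26.0 and 210.2 TPM for Ifi204 and 39.5 and 45.7 TPM for Aim2. In both genotypes 3 of 4 members were at least 2-fold higher with IFNα on the TPM + 1 scale, where 1.60% of 10410 genes were in WT and 1.81% in IRF2KO. With LPS, Ifi203 was at 11.7 TPM in WT and 18.9 TPM in IRF2KO, Mndal at 26.2 and 37.4 TPM, Ifi204 at 20.6 and 32.7 TPM and Aim2 at 29.5 and 31.2 TPM. None of the 4 reached a 2-fold difference with LPS, where 2.19% and 2.40% of genes were at least 2-fold higher. All 4 members were higher in the IRF2KO library than in the WT library at 0 h, with IFNα and with LPS. The differences were 0.08 to 0.80 on the log2(TPM + 1) scale, and 0 of 4 reached 2-fold (0.663%, 0.720% and 0.548% of genes). The share of all genes that were higher to any degree was not counted. In the replicated libraries the members' IRF2KO differences from WT had both signs, from -0.39 (Mndal with IFNγ) to 0.51 (Ifi203 in media), and none was called.

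**Figure D5:**
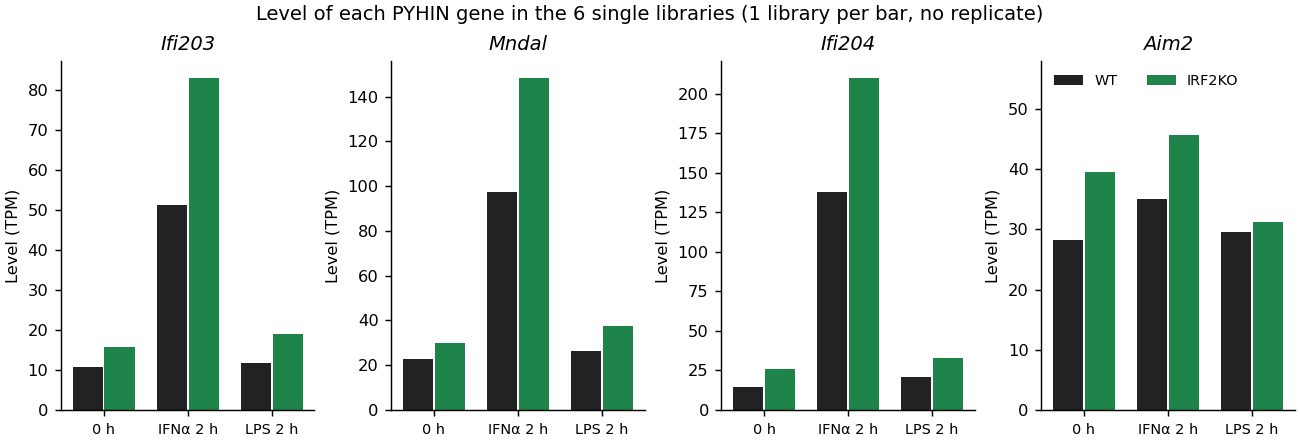
Level in TPM (vertical axis, from 0) of each gene in the 6 single libraries, 1 library per bar, WT in black and IRF2KO in green. The IFNα bars of Ifi203, Mndal and Ifi204 stand above those at 0 h and with LPS in both genotypes, and those of Aim2 are near the rest.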

How the data were processed

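The values are TPM as the authors deposited them, in 1 table with a column for each of 30 libraries. The submitters' processing notes name bcl2fastq 2.20, Bowtie 0.12.2 and RSEM and the builds mm10 and GRCm38, with no role for each. Nothing was renormalised. Each member had 1 entry among the 24 replicated libraries and 1 among the 6 single ones. TPM keeps no counts, so no count model was used and depth is unknown.

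A gene was tested where 2 or more of the replicated libraries reached 1 TPM (11842 genes). The model, in limma 3.58.1 (R 4.3.3), took log2(TPM + 1) and gave every one of the 12 groups its own mean, with a trended prior variance and 12 residual degrees of freedom. The pseudocount of 1 TPM understates changes of low genes. Tests are two-sided, with Benjamini-Hochberg adjustment over all genes within each of 33 comparisons. Calls are those with an adjusted p under 0.05. The method was tested on simulated data with noise drawn independently for each library. No shift shared by the libraries of a replicate number was put in, so that test does not cover one. Named genes are the 4 members, the 5 genes closest to each by Pearson r (mean of at least 5 TPM), the further Pyhin genes that were tested, up to 4 called genes of each fixed list, the targeted genes and the markers. Pycard and the list genes called only with the replicate block (Casp1, Ninj1, Xrcc5) were chosen after their values were seen. The members and lists were chosen with earlier results of these data known.

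Titles tie every replicate number to 1 code that looks like a date. The main fit did not pair libraries by number, and an alternative fit took the number as a block. Same-numbered deviations from the group means had a correlation over 0.1 for 56 of 66 group pairs (median 0.233). The fit with the replicate block is given where it changes a call of a gene or list in a comparison described in the text. Each SE is that of the main fit, also where an adjusted p with the block stands beside it. Only the SE of the replicate term is from the fit with the block. Alternatives were pseudocounts, filters, scalings, the compared groups alone, the highest entry in place of the sum, and leaving out each library. Promoters and positions are RefSeq's on GRCm38.p6 and transcripts GENCODE's. Alignments used Biopython 1.88, tables pandas 2.3.3 and numpy 2.4.6, and plots matplotlib 3.10.9, in Python 3.11.15.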

Additional observations from a re-analysis of the deposited data

Results flagged for a closer look

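The difference between DKO and WT cells in Mndal was larger in size under IFNγ than under IFNα, by -1.21 ± 0.23 on the log2(TPM + 1) scale. The direct test of that difference passed the threshold with the replicate number as a block (limma adjusted p = 0.043) and not without it (0.072), and the contrast was added after the values had been seen. DKO libraries were below WT libraries in both treatments. Groups of 2 libraries were too small for a search for outlying samples.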

How the results depend on the processing

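Of 1880 refits of single member values, 1790 kept the side of the threshold, 76 lost a call, 14 gained one and 0 reversed a called value; 58 uncalled values changed sign. With only the groups compared in a fit, and so fewer samples, calls higher with interferon were 12 in place of 21 and calls lower 0 in place of 1, mutant against WT calls 0 in place of 4, DKO against the other mutants 0 in place of 6, and IFNγ against IFNα 1 in place of 8. Without the filter on low values, calls lower with interferon were 0, and Ifi204 with IFNγ lost its calls in WT (limma adjusted p = 0.07) and IRF1KO (0.063). A pseudocount of 5 TPM lost the calls of Ifi203 with IFNγ in DKO (0.061) and in DKO against IRF2KO in media (0.097). It gained that of Ifi204 for IFNγ against IFNα in WT (0.026). With the replicate block, which pairs samples by number, the contrast added later had 1 call in place of 0, calls higher with interferon were 23, mutant against WT 5, DKO against the other mutants 7, IFNγ against IFNα 9, and interactions 0. Leaving out 1 library at a time gave 20 to 21 calls higher and 0 to 1 lower with interferon, 3 to 5 lower for mutants, 5 to 6 for DKO against the other mutants, 5 to 8 for IFNγ against IFNα, 0 for interactions and 0 to 1 for the added contrast. TMM and quantile scaling gave 21, 5, 6 and 9 calls in the first 4 families. TMM scaling moved the median of all genes by up to 0.129, over 0.1 in 2 comparisons (DKO against IRF2KO in media, and the IFNα response of IRF2KO against WT). This shift was not measured for quantile scaling. Taking the highest entry changed nothing, since each member has 1 entry per set. With a pseudocount of 5 TPM in the single WT libraries the IFNα difference was 1.85 for Ifi203 and 2.87 for Ifi204. With TPM alone and 2 libraries a group, precision rests on the spread between libraries.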
